A study of Mus musculus with 6 samples.

Results

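The 34 genes described here act in DNA replication and S phase, the stretch of the cell cycle in which the genome is copied. They were taken by name from a list of S phase genes, with earlier results of these data known. All 34 were among the 15601 genes of the deposited count table. By role they fall into 10 licensing and helicase genes, 6 genes of DNA synthesis at the fork, 3 of nucleotide supply, 4 of chromatin and histone supply, 9 of repair and the replication checkpoint, and 2 regulators of the cycle. Each had a gene of the same symbol in the GENCODE M21 annotation of the mouse genome build mm10. They lie on 15 chromosomes, with 1 of them (Pola1) on the X and 0 on the Y.

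Male and female wild-type C57BL/6 mice carried tumours of MB49, a mouse urothelial carcinoma cell line, grown under the skin. The mice were inoculated at 6 weeks of age (the sample labels give an age of 6 to 8 weeks) and tumours were taken on day 10, with no treatment in either group. Sorting kept live CD3+ CD8+ CD4- cells, and their RNA was counted per cell with a 10x Genomics 3′ kit. The table holds 26698 cells in 11 clusters that the authors deposited, from 3 male libraries (numbers 1, 3 and 4) and 3 female libraries (2, 5 and 6).

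In G1, cells load the MCM helicase onto replication origins with the help of Cdc6. On entry into S phase the helicase is activated by Cdc45 and the GINS complex, forks are opened, and the polymerases copy both strands while ribonucleotide reductase and thymidylate synthase supply building blocks. Many of these genes are transcribed under the control of E2F transcription factors. Activated CD8 T cells divide rapidly, and S phase transcripts are commonly used as a mark of dividing cells.

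Libraries held 2121 to 7156 cells. Median depth was 6397.5 to 10114.5 UMIs (unique molecular identifiers, which count molecules of RNA) per cell, lowest in male libraries 1 and 4. Clusters 3 and 5 together held 4776 cells, 17.9% of all, at medians of 23987.5 and 18351 UMIs per cell, the deepest of the 11. Clusters 6 and 10 were shallow, at 1742 and 1461 UMIs, with median mitochondrial shares of 30.0% and 20.3%. In clusters 3 and 5 the 5 CD8 T cell markers summed to 3333 to 4235 CPM per library, against 3565 to 5462 in the other clusters. CPM is a gene's UMI count scaled to a common total over the same cells, and since only the 3′ end is counted it is compared here within genes. Cd4 was at 0 to 0.362 CPM there. The 12 myeloid markers summed to 15.5 to 57.1 CPM and the 5 tumour epithelial markers found in the table to 2.98 to 8.59 CPM. The natural killer and innate-like markers summed to 621 to 1252 CPM in cluster 2 and 656 to 1257 in cluster 4. Cluster 2 was left out of the edgeR and DESeq2 comparisons between the sexes over summed clusters and cluster 4 was kept, while shares of cells are over all 11 clusters unless stated.

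To show the E2F sites that these genes are known for, the promoter windows in RefSeq's table for the build GRCm38.p6 were searched on both strands for TTTCCCGC, TTTCGCGC, TTTGCCGC and TTTGGCGC. Each window runs from 250 bases before the start of transcription to 50 bases after it. Of the 34 genes, 26 matched an entry, and 9 of these (34.6%) held at least 1 of the 4 words. Over all 27025 genes with a window, 2.61% held one. The share was 40.0% (18 of 45) among other replication genes and 2.86% (1 of 35) among genes of G2 and mitosis. For TTTGAA, the core of the element called CHR, the order was different: it was in 19.2% of the S phase genes, 71.4% of the G2/M genes and 20.2% of all genes. CCAAT was in 76.9%, 77.1% and 41.1%. The words share letters where they overlap, as the 2 matches in Mcm5 and the first 2 in Mcm6 do. A match is a description of the letters, since binding was not measured.

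Stretches are shown for 4 genes whose matches lie upstream of both the RefSeq start and the GENCODE gene, with the matched bases in capitals and up to 25 bases on each side, read 5′ to 3′ on the strand of the gene. Mcm5 and Mcm6 are subunits of the helicase, Pola1 is the catalytic subunit of DNA polymerase alpha, and Dtl is the substrate receptor of a ubiquitin ligase that acts on PCNA-bound proteins. They lie at chr8:75109331-75109392 (plus strand), chr1:128359720-128359840 (minus), chrX:93632261-93632318 (minus) and chr1:191575545-191575577 (minus).
Mcm5: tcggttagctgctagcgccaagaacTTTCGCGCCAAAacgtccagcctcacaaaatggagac
Mcm6: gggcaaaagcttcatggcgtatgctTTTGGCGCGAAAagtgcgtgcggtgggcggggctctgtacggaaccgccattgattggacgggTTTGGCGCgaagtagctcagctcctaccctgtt
Pola1: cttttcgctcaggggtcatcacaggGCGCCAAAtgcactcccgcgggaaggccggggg
Dtl: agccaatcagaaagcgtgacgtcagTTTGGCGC
Mcm6 held 3 matches, the most of any of the 26 genes with a window.

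Which cells of the tumour express the replication genes was asked first, by setting clusters 3 and 5 against the other 9. All 34 genes were higher in clusters 3 and 5 in 6 of 6 libraries. Of 8836 genes that reached 5 CPM on either side, 37.8% were higher in 6 of 6 libraries. The median log2 ratio of CPM over the 34 was 2.68, or 6.41-fold, against 0.03 over all genes. It was 1.96 over 54 other replication genes and 4.16 over 40 G2/M genes. The clusters were built from these same transcripts, so these ratios describe the clusters and carry no test. The summed level of the 34 was 4069 ± 185 CPM (SD, n = 6 libraries) in cluster 3, 3129 ± 119 in cluster 5 and 1511 ± 161 in cluster 6. The remaining clusters lay between 659 and 964 CPM.

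**Figure D1:**
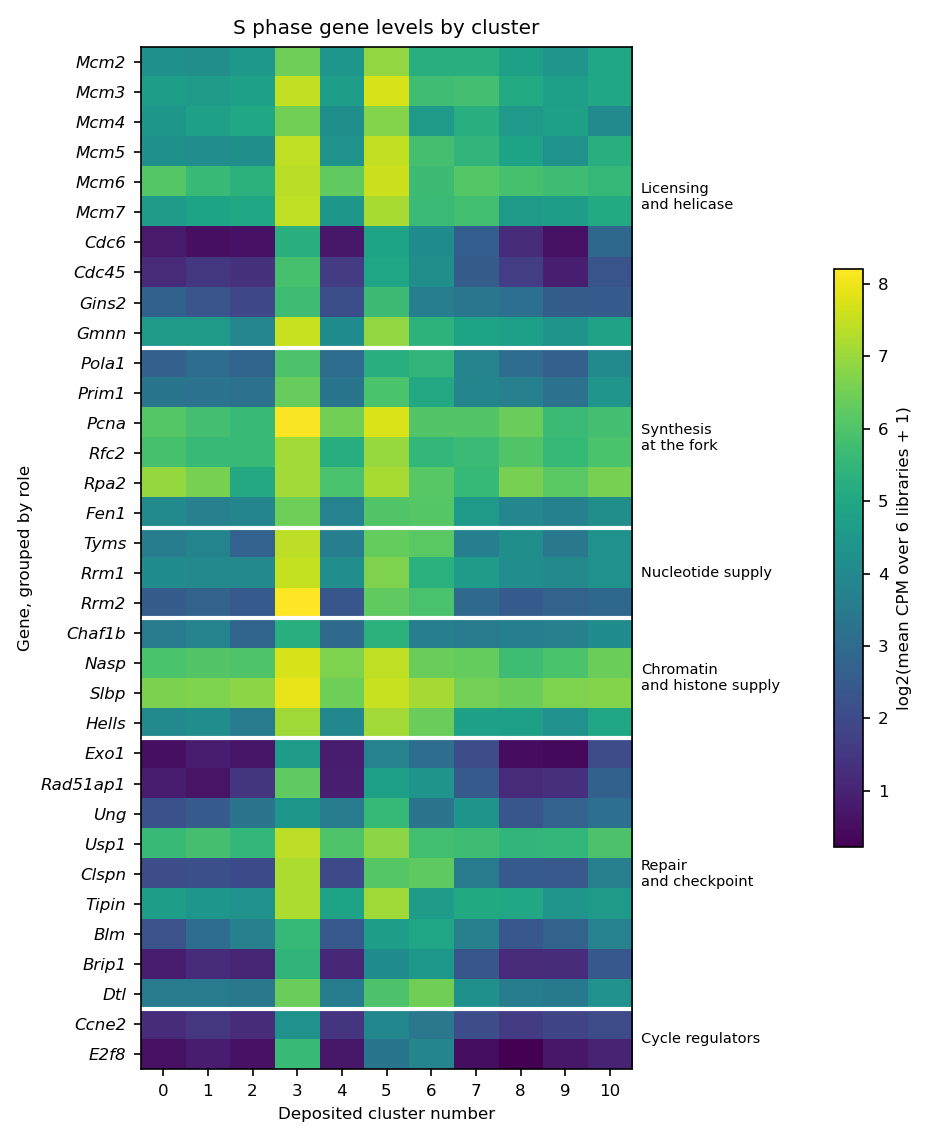
Level of each of the 34 genes in each of the 11 deposited clusters, as log2 of CPM plus 1 on the colour scale, with genes in rows ordered by role and clusters in columns. Clusters 3 and 5 stand out in nearly every row, and cluster 6 is the next highest for many genes.

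Among the licensing and helicase genes the median log2 ratio was 2.79, from 1.57 for Mcm6 to 4.11 for Cdc6, the loading factor. Mcm3, a helicase subunit, stood at 180 to 208 CPM (median 190) in clusters 3 and 5 and at 26.1 to 34.2 (median 28.0) in the other clusters. Mcm6 stood at 167 to 180 CPM (median 176) against 52.7 to 64.2 (median 59.9). For neither gene did the libraries of the 2 sides overlap. Mcm3 was 6.58-fold and Mcm6 2.97-fold higher. Cdc45, which joins the helicase at its activation, was 16.97-fold higher and Gmnn, the inhibitor of licensing called geminin, 7.28-fold higher.

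The 6 genes of synthesis at the fork had a median log2 ratio of 2.08. Pcna, the sliding clamp, ranged from 205 to 317 CPM (median 253) in clusters 3 and 5 and from 59.5 to 84.3 (median 65.7) elsewhere. Rpa2, a subunit of the protein that coats single-stranded DNA, ranged from 123 to 149 CPM (median 139) against 63.9 to 112 (median 85.5). Rpa2 was the gene with the lowest ratio of the 34, 0.72 ± 0.23 on the log2 scale (SD, n = 6), and cluster 0 reached 122 CPM. Pcna was 3.69-fold higher, with 46.1% of the cells of cluster 0 carrying at least 1 UMI of it against 93.2% in cluster 3. Thinned to 2000 UMIs per cell, those shares were 12.5% and 42.3%.

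The 3 genes of nucleotide supply had a median of 3.28. Rrm2, the regulated small subunit of ribonucleotide reductase, ranged from 170 to 219 CPM (median 206) in clusters 3 and 5 and from 5.43 to 7.403 (median 6.28) elsewhere. Its large subunit, Rrm1, ranged from 135 to 167 CPM (median 141) against 14.8 to 19.3 (median 16.6). With 0.5 CPM added to both sides, the fold was 30.0 for Rrm2, the highest of the 34, and 8.55 for Rrm1. That addition shrinks the ratios of genes at low levels. Without it the ratio of mean CPM was larger for the regulator E2f8 (32.2 against 0.840) than for Rrm2 (204 against 6.32). Tyms, thymidylate synthase, was 9.69-fold higher.

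The 4 genes of chromatin and histone supply had the lowest median, 1.71. Slbp, which binds histone mRNA, ranged from 199 to 243 CPM (median 220) in clusters 3 and 5 and from 90.3 to 97.9 (median 96.0) elsewhere. Nasp, a histone chaperone, ranged from 183 to 215 CPM (median 192) against 61.7 to 76.8 (median 67.3). Both had levels well above 0 in every cluster, with the lowest in cluster 8 for each, at 83.4 CPM for Slbp and 51.8 for Nasp. Hells, a chromatin remodeller, was 6.84-fold higher. Outside clusters 2, 3 and 5, a UMI of Slbp was seen in 48.5% of cells, of Rpa2 in 42.3% and of Nasp in 38.4%.

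Repair and checkpoint genes had a median log2 ratio of 2.49. Usp1, a deubiquitinase that acts on PCNA and FANCD2, ranged from 140 to 154 CPM (median 145) in clusters 3 and 5 and from 48.0 to 54.4 (median 50.9) elsewhere. Tipin, of the fork protection complex, ranged from 135 to 146 CPM (median 142) against 21.4 to 27.0 (median 25.2). Rad51ap1, which acts in homologous recombination, was 24.8-fold higher and Clspn, the checkpoint adaptor claspin, 18.5-fold. The 2 regulators had the highest median of the roles, 3.73. Of these, E2f8, a repressor of the E2F family, ranged from 28.4 to 37.2 CPM (median 30.5) against 0.472 to 1.17 (median 0.826). Ccne2, cyclin E2, ranged from 15.4 to 18.9 CPM (median 17.2) against 1.67 to 2.28 (median 1.95).

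The highest cluster was 3 for 24 genes, 5 for 9 and 6 for 1. The exception was Dtl, at 87.2 ± 16.2 CPM in cluster 6 and 81.5 ± 10.8 in cluster 3 (SD, n = 6), a gap smaller than the spread between libraries. Of the 9 genes that peaked in cluster 5, Mcm5, Hells and Chaf1b did so in only 4 or 5 of 6 libraries.

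The levels of the replication genes in cluster 3 were then set over those in cluster 5. In all 6 libraries 24 of the 34 were higher in cluster 3 and 6 were lower, and 4 were mixed (Gins2, Mcm5, Hells and Chaf1b). Over all genes, 20.4% were higher and 19.2% lower in 6 of 6 libraries. These clusters too were built from these same transcripts, so the counts and ratios describe the clusters and carry no test. The median log2 ratio was 0.39 for the 34, -0.01 for all genes and 2.18 for the G2/M genes. The 6 lower genes were Mcm2, Mcm3, Mcm4, Mcm6, Rpa2 and Ung, the uracil-DNA glycosylase.

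The range was widest among the repair genes and regulators. E2f8 stood at 43.9 to 54.7 CPM in cluster 3 and 5.41 to 14.1 in cluster 5, a log2 ratio of 2.40 ± 0.37 (SD, n = 6). Rrm2 stood at 256 to 324 CPM against 58.0 to 84.7, a log2 ratio of 1.96 ± 0.15. Ung was the reverse, at 13.6 to 31.8 CPM in cluster 3 against 41.9 to 50.8 in cluster 5, a log2 ratio of -1.19 ± 0.30. For none of these 3 genes did the libraries of the clusters overlap, which again describes the clusters and is no test. Mcm2 was at 86.7 ± 13.2 CPM in cluster 3 and 120 ± 14.7 in cluster 5, a log2 ratio of -0.47 ± 0.09. The licensing genes as a group sat near 0, with a median of 0.02, since Cdc45 (0.96) and Gmnn (0.62) were higher in cluster 3 and 4 MCM subunits lower.

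**Figure D2:**
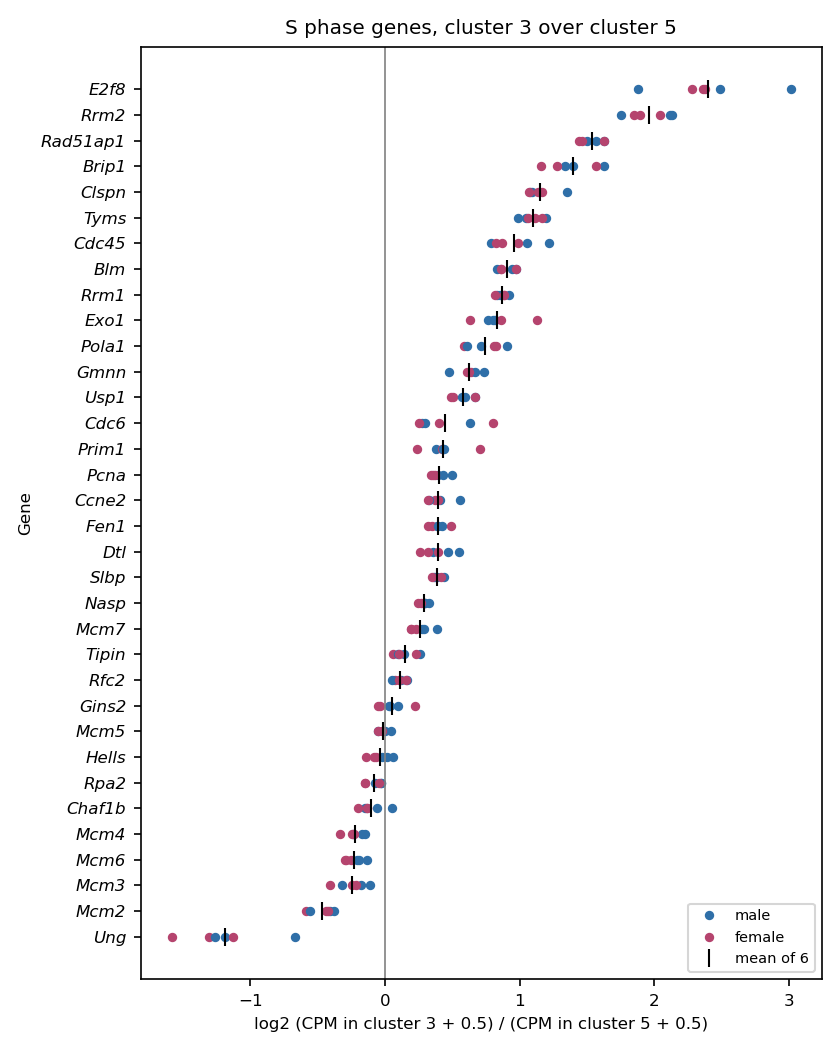
Log2 ratio of CPM in cluster 3 over cluster 5 for each of the 34 genes, with a point for each of the 6 libraries. E2f8 and Rrm2 lie far above 0 in all 6 libraries and Ung lies below 0 in all 6.

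The cells of clusters 3 and 5 were then ordered by their own G2/M transcripts, with each cell thinned to 2000 UMIs so that depth was equal. The bins were chosen after the data were seen. They held 1175 cells with 0 to 4 G2/M UMIs, 1020 with 5 to 9, 1278 with 10 to 19 and 1289 with 20 or more. The mean number of S phase UMIs was 5.97 ± 0.46, 7.87 ± 0.46, 8.20 ± 0.43 and 7.39 ± 0.34 in the 4 bins (SD, n = 6 libraries). Cells of cluster 5 made up 1146 of the first bin and cells of cluster 3 1206 of the last.

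The genes took different courses along these bins. Ung was at 49.2 CPM in the first bin, 51.7 and 26.3 in the middle bins and 6.91 in the last. Mcm2 went from 139 through 133 and 97.9 to 61.3 CPM. Rrm2 ran the other way, from 37.2 through 161 and 258 to 311 CPM, and E2f8 from 5.99 through 29.1 and 35.0 to 46.0. Pcna was highest in the third bin, at 315 CPM. By their highest bin, 2 genes fell in the first, 11 in the second, 11 in the third and 10 in the last. With all UMIs of the same cells in place of the thinned ones these numbers were 1, 16, 10 and 7, and 24 of 34 genes kept their bin, so the bin of a single gene is not firm. The direction for Ung, Mcm2, Rrm2 and E2f8 was unchanged, with Ung at 50.9 CPM in the first bin and 4.26 in the last.

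**Figure D3:**
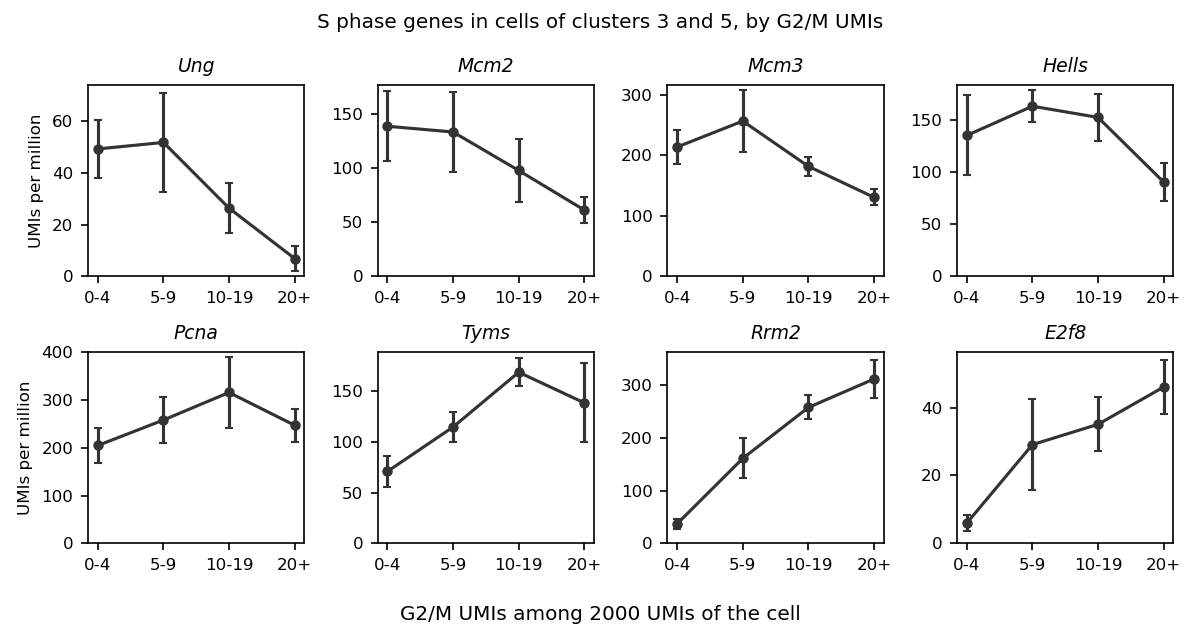
Level in CPM (mean and SD over 6 libraries) of 8 S phase genes in cells of clusters 3 and 5, in 4 bins of G2/M UMIs per cell after thinning to 2000 UMIs. Ung and Mcm2 are lowest in the last bin, at 6.91 and 61.3, and Rrm2 and E2f8 are highest there, at 311 and 46.0.

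Cells with at least 3 UMIs of the 34 genes were then counted at equal depth, 2000 UMIs per cell. In cluster 3 the share was 91.9% ± 1.13 (SD, n = 6), in cluster 5 79.4% ± 2.30 and in cluster 6 50.4% ± 6.58. In the other clusters it was 16.4% to 29.9%. No cell type known to lack these genes was sorted, so the background from free RNA was not measured. In the 9 other clusters together 33.5% of cells had 2 or 3 such UMIs, next to the minimum, and the share fell from 21.1% to 4.95% at a minimum of 5. With all UMIs, where deeper cells pass more easily, it was 99.8% in cluster 3, 99.2% in cluster 5, 37.3% in cluster 6 and 22.0% to 94.5% in the others. Thinning left out 2383 cells, among them 1249 of the 2034 cells of cluster 6 and 843 of the 1137 of cluster 10. A stricter count, at least 5 UMIs, gave 4258 cells. Of these, 939 (22.1%) lay outside clusters 3 and 5, with 254 in cluster 6, where they had a median of 9 G2/M UMIs against 2 in the rest of the cluster. Cluster 0 held 191, cluster 1 133 and cluster 7 92. The median depth of these cells was 9168 UMIs in cluster 0, 4107 in cluster 1 and 13323.5 in cluster 7, against 9211, 5443 and 7517 for all cells of the cluster kept at thinning. In clusters 0, 1, 2, 8, 9 and 10 their median was 2 G2/M UMIs, the same as in the other cells. In clusters 4 and 7 it was 2 against 1. In cluster 7, 21.7% of them had at least 5 G2/M UMIs, against 5.30% of the other cells. That share was also higher in them in clusters 0, 1, 2, 4, 9 and 10. In cluster 8 it was lower, at 1.47% against 6.85%. Clusters 2, 4, 8, 9 and 10 held only 68, 79, 68, 29 and 25 of these cells. The cells were pooled over the libraries, so the directions in those clusters are not firm. The part of depth and mitochondrial share in these counts was not tested.

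**Figure D4:**
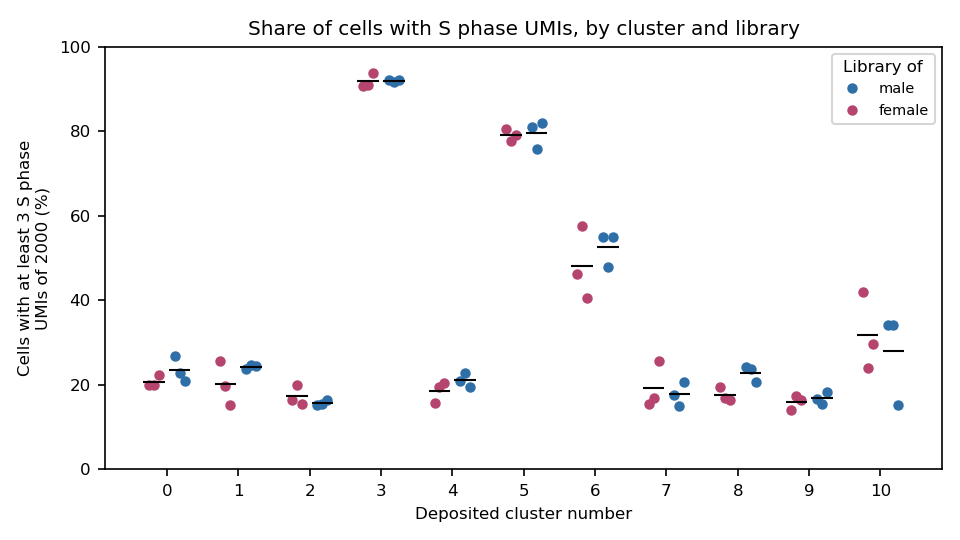
Percent of cells with at least 3 UMIs of the 34 S phase genes among 2000 UMIs, by cluster, with a point for each library. Clusters 3 and 5 reach 91.9% and 79.4% on average, cluster 6 50.4%, and no other cluster averages above 29.9%.

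Clusters 3 and 5 made up a larger share of cells in females. The share was 21.4%, 21.9% and 20.4% in the female libraries (2, 5 and 6) and 13.3%, 17.2% and 17.3% in the male libraries (1, 3 and 4). The means were 21.2% ± 0.78 and 15.9% ± 2.27 (SD, n = 3 per sex), and the groups did not overlap. Cluster 7 was at 3.81% ± 1.10 of cells in females and 8.47% ± 2.72 in males. The share of all cells with at least 3 S phase UMIs after thinning, which left out 900 female and 1483 male cells, was 36.0%, 36.2% and 35.6% in females and 31.4%, 32.9% and 33.7% in males, again without overlap. For both shares, over all 11 clusters, the exact two-sided permutation test gave p = 0.1, the smallest that 3 against 3 libraries allow. Any 3 against 3 values without overlap give this p, so it adds nothing to the ranges. With cluster 2 left out (decided once the values were known) the means were 37.7% ± 0.77 in females and 36.0% ± 0.29 in males, and the male minus female gap went from -3.21 to -1.67 percentage points. Without thinning the sexes overlapped, at 81.1% ± 1.55 in females and 77.3% ± 4.57 in males. After thinning, the share within clusters 3 and 5 was 85.8% ± 1.23 in females and 86.0% ± 1.71 in males, and in the 9 other clusters it was 20.8% ± 0.03 and 21.5% ± 0.28. At a minimum of 5 UMIs both directions turned, to 70.7% and 68.9% in clusters 3 and 5 and 5.27% and 4.63% in the others. In a sum over cells, the number of dividing cells and the RNA per cell cannot be told apart.

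Host sex was then tested over all cells outside cluster 2 with edgeR's quasi-likelihood test, on counts summed per library, with 3 libraries per sex and log2 fold changes coded male minus female. None of the 34 genes passed an adjusted p of 0.05, where 0.0902% of 12194 genes did. With DESeq2 the count was also 0, where it called 1.04% of genes. At an unadjusted p under 0.05 it was 0 with edgeR, against 8.36% of all genes, and 1 with DESeq2, against 7.82%. Of the 34, 30 were lower and 4 higher in males, where 48.8% of all genes were lower. Their median was -0.09 against 0.00 over all genes. Nothing in the labels ties the libraries to litters or batches, so the p-values measure the spread between these libraries.

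Rrm2 had the smallest p. It stood at 96.0, 99.4 and 97.98 CPM in the female libraries (2, 5 and 6) and 79.7, 95.4 and 75.3 in the male libraries (1, 3 and 4), and male library 3 was close to the females. The log2 difference was -0.22 ± 0.11 (SE), with an edgeR adjusted p of 0.636. E2f8 stood at 13.5, 14.3 and 17.9 CPM in females and 14.2, 13.0 and 12.4 in males (log2 difference -0.19 ± 0.10, edgeR adjusted p = 0.678). Ccne2 stood at 8.44, 8.81 and 9.70 CPM in females and 8.34, 7.56 and 8.11 in males, which did not overlap (log2 difference -0.16 ± 0.09, edgeR adjusted p = 0.694). These 3 genes were picked for the smallest p of the 34. How many of all genes separate the sexes without overlap is not given. With clusters 3 and 5 left out, the median of the 34 was 0.07 and 24 were higher in males, where 50.5% of all genes were lower. At an unadjusted p under 0.05, 4 were higher (Ung, Mcm7, Mcm4 and Rad51ap1), against 5.9% of all genes. By edgeR and DESeq2 0 passed the adjusted threshold, which 0.095% of all genes passed by edgeR and 1.27% by DESeq2. Over all cells outside cluster 2, with the same mix of clusters in every library, the median of the 34 was 0.01.

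Among the other replication genes 0 of 54 were called over these cells, with 1 at an unadjusted p under 0.05 by edgeR. Ccna2 (log2 -0.23) and E2f7 (log2 -0.29) had the smallest p, with edgeR adjusted values of 0.571 and 0.596. Of the 40 G2/M genes 0 were called by edgeR or DESeq2 and 39 were lower in males, against 48.8% of all genes. At an unadjusted p under 0.05 by edgeR 12 were lower, against 3.01% of all genes, with Kif11 at -0.32 and Kif20a at -0.33 on the log2 scale. Their edgeR adjusted p was 0.314 for each.

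The sexes were then compared within the dividing clusters. In cluster 3, 0 of 34 genes were called by edgeR or DESeq2, where edgeR called 0.142% of 10534 genes and DESeq2 0.313%, and 0 had an unadjusted p under 0.05, against 5.48% of all genes. The median of the 34 was 0.02. Mcm7 was at 151, 166 and 174 CPM in females and 184, 177 and 178 in males, which did not overlap (log2 difference 0.12 ± 0.08, edgeR adjusted p = 0.953). Ung was at 18.3, 13.6 and 22.8 CPM in females and 31.8, 19.9 and 18.8 in males, with 1 male library high. Slbp was at 233, 255 and 267 CPM in females and 257, 219 and 227 in males, with the groups overlapping. Again the 3 genes were those with the smallest p of the 34, and the share of all genes without overlap is not given. The 95% interval of a difference reached 0.19 to either side at the median of the 34.

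In cluster 5 the count was also 0 of 34 by edgeR, DESeq2 and at an unadjusted p under 0.05, where edgeR called 0.0979% of 10212 genes, DESeq2 0.176% and the unadjusted threshold 3.99%. The median was -0.04. Hells was at 145, 127 and 156 CPM in females and 139, 128 and 123 in males, Slbp at 179, 191 and 209 in females and 189, 170 and 174 in males, and Tyms at 75.9, 78.4 and 71.2 in females and 91.0, 80.01 and 81.4 in males. Tyms did not overlap between the sexes and the other 2 did. Their log2 differences were -0.15, -0.13 and 0.13, with an edgeR adjusted p of 0.998 for each.

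In the 9 other clusters 9 to 29 of the 34 genes had enough counts to test, and 0 were called by edgeR or DESeq2. At an unadjusted p under 0.05 there were 10 of 226 tests in all by edgeR, 7 higher and 3 lower in males, and 3 by DESeq2. Over the gene tests of the 9 clusters added up, DESeq2 called 0.737% and had 4.39% at the unadjusted threshold. Of all genes, edgeR called 0.139%, 3.8%, 0.358% and 0.105% in clusters 0, 1, 2 and 4, and 0.181%, 0.168%, 0.0968%, 3.41% and 0.274% in clusters 6 to 10. At the unadjusted threshold the shares were 4.61%, 17.3%, 6.46% and 4.54%, and 4.76%, 6.88%, 3.36%, 16.5% and 5.41%. Ung was higher in males in clusters 0 (log2 0.69), 8 (0.79) and 1 (0.57), none of them past the adjusted threshold. All 3 lower genes were in cluster 7: Mcm5 (log2 -0.47), Clspn (-0.81) and Gmnn (-0.41). There 19 of the 29 genes tested were lower in males, against 50.8% of all genes, with a median of -0.16. In cluster 1, of 46 other replication genes tested, edgeR called 4 higher and 1 lower in males, where it called 3.8% of all genes. DESeq2 called 1 of the 46 and 2.92% of all genes. The genes that were higher in males included Cdt1, Topbp1 and Atad2 (log2 0.63, 0.51 and 0.50), and E2f2 was lower (-0.70).

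The difference between the sexes was itself set between clusters 3 and 5, called the dividing cells here, and the rest outside cluster 2. The library was a block in edgeR's model. The rest was not free of proliferation transcripts. The 7 proliferation markers summed to 1337 CPM in cluster 6, against 1405 in cluster 5 and 4809 in cluster 3. Of the 34 genes 3 were called, all negative: Mcm2, Mcm3 and Mcm4, 3 subunits of the helicase. Over all 11728 genes, 1.92% were called, 1.07% in the negative direction. At an unadjusted p under 0.05 there were 14 of the 34, all negative, against 8.8% of all genes in that direction. The median over the 34 was -0.13. DESeq2 called 0 of the 34 and 0.827% of all genes.

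The values behind the 3 calls were as follows. Mcm2 in clusters 3 and 5 was at 88.5, 94.5 and 121 CPM in females and 112, 87.9 and 97.9 in males, and in the rest at 17.8, 18.7 and 24.4 in females and 28.7, 19.3 and 22.9 in males. Males and females overlapped on both sides. The male minus female difference was -0.04 in the dividing cells and 0.24 in the rest, each from its own fit. The gap between them, from the joint fit with the library as a block, was -0.30 ± 0.07 (log2, SE, edgeR adjusted p = 0.0407).

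Mcm3 was at 190, 190 and 199 CPM in females and 208, 183 and 180 in males in clusters 3 and 5, and at 28.4, 25.6 and 28.1 in females and 36.5, 28.4 and 29.4 in males in the rest. Male library 3 and female library 2 were both at 28.4 in the rest. The gap was -0.27 ± 0.07 (edgeR adjusted p = 0.0431). Mcm4 was at 94.2, 97.6 and 96.7 CPM in females and 99.1, 95.8 and 95.5 in males in clusters 3 and 5. In the rest it was at 20.7, 19.3 and 21.3 in females and 28.3, 22.3 and 23.8 in males, with no overlap, and the gap was -0.33 ± 0.08 (edgeR adjusted p = 0.0484). Male library 1 was the highest in the rest for all 3 genes. The share of all genes without overlap in the rest is not given.

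The calls were lost when single libraries were left out, while the gaps stayed negative. Over the 6 libraries left out in turn the gaps ran from -0.34 to -0.22 for Mcm2, from -0.33 to -0.21 for Mcm3 and from -0.39 to -0.23 for Mcm4. Without male library 1 the count was 0 and the gaps were -0.22, -0.21 and -0.23 for Mcm2, Mcm3 and Mcm4. It was also 0 without female library 2, 5 or 6, with cluster 7 left out of the rest, and with the same mix of clusters in every library, the last 2 chosen after the data were seen. Without cluster 7 the gaps were -0.23, -0.18 and -0.27, and with the same mix -0.22, -0.16 and -0.18. Mcm3 was also no longer called without male library 3 or 4 (edgeR adjusted p = 0.0567 and 0.0581). Of the 11 alternatives run, the call was lost in 7 for Mcm2, 9 for Mcm3 and 8 for Mcm4. Cluster 7, which had a larger share in males, was the third highest cluster for Mcm3 (55.6 CPM) and Mcm4 (37.4 CPM). For Mcm2 it was cluster 6 (37.6 CPM), whose share was larger in females, at 9.40% ± 1.82 against 6.78% ± 1.33 in males (SD, n = 3 per sex). The part of cluster shares in the calls was not tested beyond these fits. Among other replication genes Atad2, Pole2 and Topbp1 were called, all negative, at -0.39, -0.47 and -0.29. That is 3 of 54, where edgeR called 1.92% of all genes, and DESeq2 called 1 of the 54. Of the G2/M genes 0 were called by edgeR or DESeq2. At an unadjusted p under 0.05 by edgeR 12 of the 40 were negative, against 8.8% of all genes. In the positive direction there was 1, against 674 of 11728 genes. Smc4 (-0.25) and Bub1b (-0.59) had the smallest p.

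**Figure D5:**
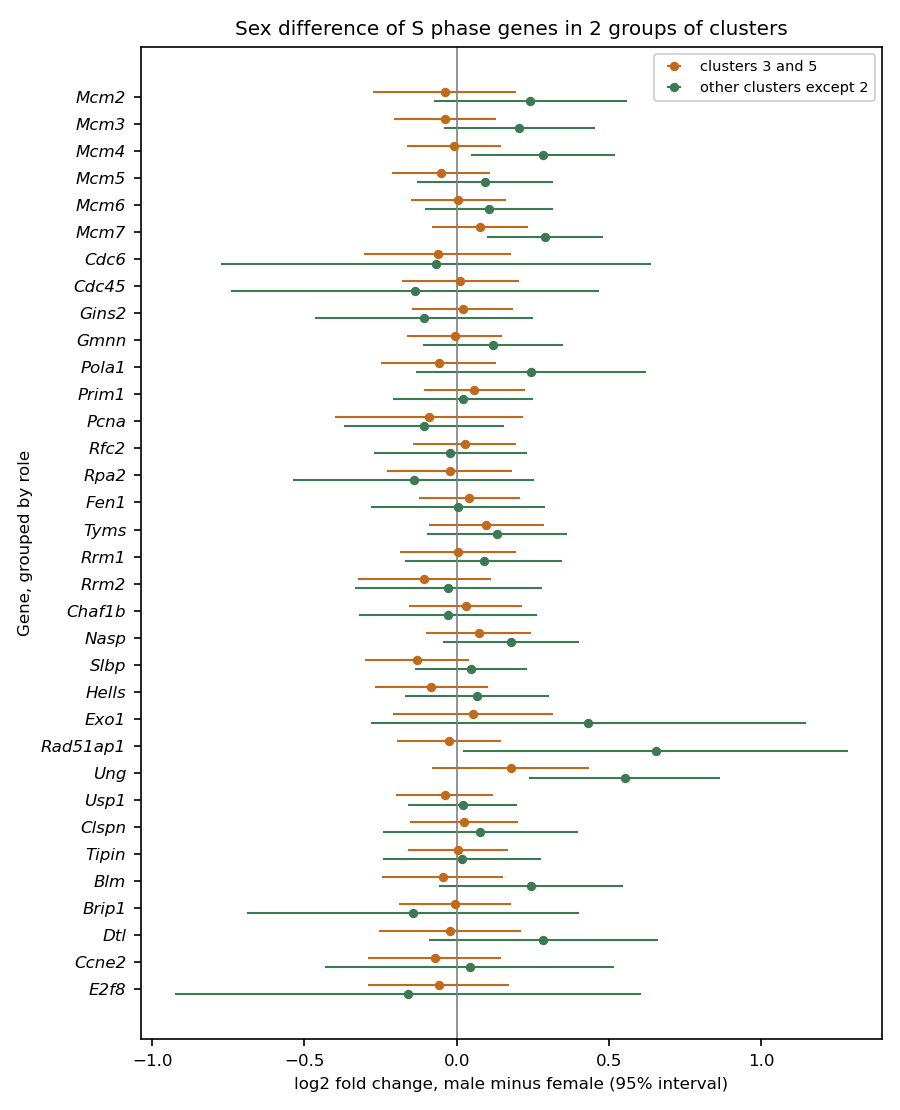
Male minus female log2 difference of the 34 genes in clusters 3 and 5 and in the rest, with the 95% intervals of the fits. Mcm2, Mcm3 and Mcm4 lie near 0 in clusters 3 and 5 (-0.04, -0.04 and -0.01) and at 0.24, 0.21 and 0.28 in the rest.

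Set between cluster 3 and cluster 5, the sex difference was called for 0 of 34 genes by edgeR and DESeq2, where edgeR called 0.0559% of 10740 genes and DESeq2 0.0186%, and for 0 at an unadjusted p under 0.05, against 5.48% of all genes. It was higher in cluster 3 for 28 of the 34, with a median of 0.04. For 51.5% of all genes it was lower there. The smallest p values were those of Ung (0.36), Mcm7 (0.11) and Hells (0.11, log2), all with an edgeR adjusted p of 0.888.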

How the data were processed

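Levels of 34 S phase genes were measured by single-cell RNA sequencing of sorted tumour CD8 T cells. The authors deposited raw counts (UMIs) per gene and cell with a metadata table of sex, cluster and totals. Per the submitters' processing notes, Cell Ranger, Seurat and the build mm10 were used, with no versions. The sources used here do not give the filters on cells and genes or say how doublets were handled, and none were removed here. The deposited UMI total equalled the column sum in all 26698 cells. Cells were assigned to libraries by the number that follows the barcode, and 84 barcodes (169 cells, 30 in clusters 3 and 5) occurred under more than 1 number.

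CPM are counts summed per library and cluster over the library's UMIs in those cells, and ratios add 0.5 CPM. Sex was tested on library sums with edgeR 4.0.16 in R 4.3.3 (quasi-likelihood, robust, its filter on low counts, TMM, Benjamini-Hochberg over all genes tested), with DESeq2 1.42.0 and limma 3.58.1 as alternatives. Scripts were tested on simulated counts. Per-library values are given for the 2 genes of each role with the highest mean CPM in clusters 3 and 5, and for called genes, or the 3 with the smallest p where none was called. For the other 2 lists the rule was up to 3 called genes per direction, otherwise the 2 with the smallest p. Other genes were named after their values were seen. The genes and lists were chosen with earlier results of these data known. Values of 1 gene in the list of other replication genes are not reported here, and the counts over the list include it.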

Additional observations from a re-analysis of the deposited data

Results flagged for a closer look

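The sex difference in Mcm2, in clusters 3 and 5 minus that in the rest, was -0.30 on the log2 scale and was marked because a test of that difference passed. The same was found for Mcm3, at -0.27, and for Mcm4, at -0.33. The edgeR adjusted p was 0.0407, 0.0431 and 0.0484. All 3 were lost with DESeq2, where the adjusted p was 0.176, 0.141 and 0.149. The adjusted p over all alternatives ranged from 0.0288 to 0.473 for Mcm2, from 0.0351 to 0.71 for Mcm3 and from 0.0408 to 0.703 for Mcm4. The cause was not tested.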

How the results depend on the processing

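Counts of 0 called genes over all CD8 cells, in clusters 3 and 5 and between them stayed 0 under the alternatives run. The 3 calls of the interaction between sex and dividing cells became 0 with DESeq2, with cluster 7 left out of the rest and with the same cluster mix, and 6 with clusters 6 and 10 left out. They ranged from 0 to 4 when a library was left out. The median over all CD8 cells went from -0.09 to 0.072 with clusters 3 and 5 left out, and Ccne2 turned to 0.042 there. The median log2 ratio of clusters 3 and 5 over the rest went from 2.68 to 2.79 with clusters 6 and 10 left out and to 0.67 as a difference of mean log values per cell. The male minus female share of cells with S phase UMIs, over all clusters, went from -3.21 percentage points at 3 UMIs to -0.82 at 1 and -4.76 at 5, and to -1.67 at 3 UMIs with cluster 2 left out. The number of genes highest in the first G2/M bin went from 2 to 1 with all UMIs. No paired analysis was possible because nothing ties the numbered replicates of the labels to the libraries. With 3 libraries per sex, the fits without the library as a block could not detect differences smaller than the spread between libraries.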
